A study of Myotis pilosus with 4 samples.

Results

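The miRNAs listed as miR-200a-3p and miR-200b-3p are 2 of the 196 miRNAs that the study listed for the brain and white adipose tissue (WAT) of the bat Myotis ricketti, which the sample labels name Myotis pilosus. They were found by their listed mature sequences among the sequenced tags, first as the identical tag (the listed form) and then as every tag that began with the first 18 nt. The pair was chosen by measured values, the counts of the listed forms, which were lower in hibernating than in active brain and higher in hibernating than in active WAT. These state differences are therefore given as a description.

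Each of 4 groups of adult bats was 1 library, made from the pooled RNA of 3 bats. HB was whole brain and HA was WAT of hibernating bats. AB was whole brain and AA was WAT of active bats, a state that the labels call aroused. The capture was in October for active and in March for hibernating animals, and state and season cannot be told apart. With 1 library per group there were no replicates, no p-value was calculated, and each difference compares a pair of libraries. The intervals below are exact 95% intervals that cover counting error only, since the bats were pooled and PCR copies of a molecule are not independent.

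miRNAs are short RNAs that repress messenger RNAs through the seed, bases 2 to 8 of the miRNA. The miR-200 family is abundant in epithelial cells and represses the transcription factors ZEB1 and ZEB2, which themselves repress E-cadherin, so it is known as a keeper of the epithelial state. In mammals its members come from a pair of gene clusters, one with miR-200b, miR-200a and miR-429 and the other with miR-200c and miR-141.

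The sequences of the pair, and of 3 unlisted relatives found in the same tags, are printed 5′ to 3′ with the seed in capitals, because they show which family members the names cover.
Listed miR-200a-3p: tAACACTGtctggtaacgatgtt
Listed miR-200b-3p: tAATACTGccgggtaatgatgg
Base-11 start: tAATACTGcctggtaatgatga
miR-429 start: tAATACTGtctggtaatgccg
miR-141 start: tAACACTGtctggtaaagatg

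Counted from 1 at the 5′ end and over the first 18 nt, miR-200a-3p and miR-200b-3p differed by C4T, T9C, T11G and C17T, with the base of miR-200a-3p first. The C4T difference lies in the seed, so the pair has different seeds. The base-11 start differed from miR-200b-3p over the first 18 nt only by G11T and is named after that position. The miR-429 start differed from the base-11 start by C9T, and the miR-141 start from miR-200a-3p by C17A. From general knowledge, with no reference table used here, the sequence listed as miR-200b-3p is the one known in human and mouse as miR-200c-3p, and the base-11 start is the one known there as miR-200b-3p. The names of the miR-429 and miR-141 starts rest on the same knowledge. Below, miR-200a-3p and miR-200b-3p mean the listed sequences.

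The libraries held 10007650 to 12159756 clean reads. HA stood apart, with 6.85% of its reads longer than 25 nt against 0.505% to 0.937% in the others, and with 13.2% of its reads in the listed forms of the 196 miRNAs against 20.9% to 24.0%. Listed forms of neuronal miRNAs (8 of 8 detected in each brain library) summed to 37646 RPM in HB and 51552 RPM in AB, where RPM is the number of reads per 1000000 clean reads of the library. They summed to 34.7 RPM in HA and 30.9 RPM in AA, with 5 of the 8 at 0 in each WAT library. No miRNA that marks adipocytes was on the lists. Of the 10 epithelial names on the marker list, the study's names held only the pair itself. The 3 muscle miRNAs summed to 1948, 1605, 17409 and 18253 RPM in HB, AB, HA and AA. The 3 stromal miRNAs summed to 527, 805, 13586 and 40201 RPM, and the 4 blood miRNAs to 28.1, 62.4, 253 and 268 RPM. Each sum was carried by its most abundant members, and the members of a list did not move alike between HA and AA. Of the stromal miRNAs, miR-199-3p had 156158 reads in HA against 458628 in AA, and miR-145-3p had 218 against 173. Of the muscle miRNAs, miR-1-3p had 196202 against 202291 reads, and miR-133-3p had 84 against 331. Of the blood miRNAs, miR-486-5p had 1795 against 1763 reads, and miR-486-3p had 151 against 365. The part of these differences in the results below was not tested.

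In the order HB, AB, HA and AA, the listed form of miR-200a-3p had 100, 204, 30 and 0 reads. In RPM these were 8.22, 20.4, 2.60 and 0, and the floor of 3 reads used for the 0 in AA is 0.262 RPM, with an exact upper limit of 0.323 RPM. It was thus a brain miRNA by level, highest in active brain, and was not detected in active WAT. The listed form of miR-200b-3p had 24, 99, 269 and 28 reads in the same order. In RPM these were 1.97, 9.89, 23.3 and 2.45. Its highest level was in hibernating WAT, active brain came next, and HB and AA lay lowest and close together. Among the 196 miRNAs ordered from the most reads down, miR-200a-3p took places 81, 62, 95 and 167 in HB, AB, HA and AA. The places of miR-200b-3p were 115, 74, 44 and 111. In HA, where its place was highest, its 269 reads stood against a median of 28 reads over the 196 miRNAs.

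**Figure D1:**
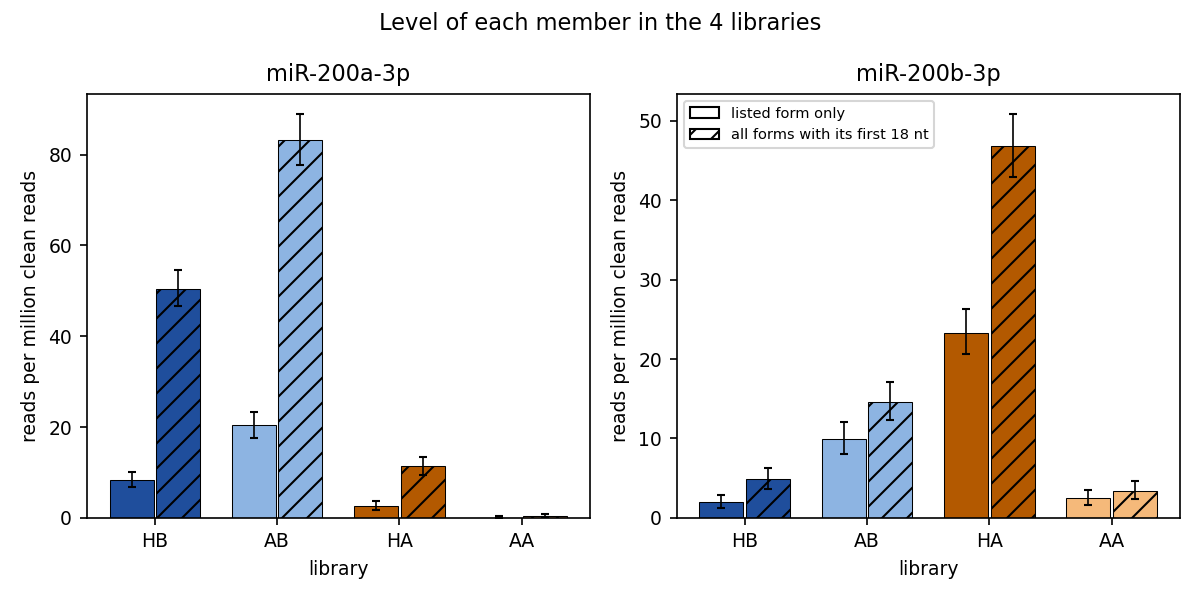
RPM (y axis) of miR-200a-3p and miR-200b-3p in the 4 libraries (x axis), with plain bars for the listed form, hatched bars for all forms with its first 18 nt, and lines for exact 95% counting intervals. miR-200a-3p is highest in AB (20.4 RPM for the listed form and 83.1 RPM for all forms), and miR-200b-3p in HA (23.3 and 46.8 RPM).

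For the state differences, library sizes were corrected with edgeR's TMM, taken over all 196 listed miRNAs, and ratios are hibernating to active. In brain, the log2 ratio of miR-200a-3p was -1.02 (-1.38 to -0.67), which is 2.03-fold higher in AB. That of miR-200b-3p was -2.04 (-2.74 to -1.38), 4.10-fold higher in AB. Both counting intervals lay below 0, and that of miR-200a-3p reached across -1. In WAT, miR-200a-3p was at least 12.6-fold higher in HA, a log2 ratio of at least 3.66 with AA set to the floor of 3 reads. The exact counting interval of 30 reads against 0 begins lower, at a log2 ratio of 3.27 or 9.65-fold. miR-200b-3p was 12.1-fold higher in HA, a log2 ratio of 3.60 (3.04 to 4.22). In bulk tissue, fewer cells of a type and less RNA per cell cannot be told apart.

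The ratios of both members reached a size of 1 on the log2 scale in each tissue, as did those of 40.5% of 153 listed miRNAs with 10 or more reads in the pair in brain and 49.3% of 142 in WAT. Both members were at -1 or below in brain, a side on which 17.6% of the 153 lay. Both were at 1 or above in WAT, where 20.4% of the 142 lay on that side. Among the conserved miRNAs the shares were 18.2% of 99 in brain and 8.64% of 81 in WAT. The median log2 ratio over the listed miRNAs was 0.01 in brain and -0.29 in WAT. From the lowest brain ratio up, miR-200b-3p was number 8 and miR-200a-3p number 27. From the highest WAT ratio down they were numbers 3 and 2, and among the conserved miRNAs numbers 2 and 1. Of 130 miRNAs with a ratio in both tissues, 3 (2.31%) were at -1 or below in brain and at 1 or above in WAT. They were both members and the bat-specific miRNA tACGGCCAagcacccgcaggg, whose log2 ratios were -1.89 in brain and 1.01 (-0.21 to 2.32) in WAT. Since the pair was chosen for this pattern, nothing is read from these counts.

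**Figure D2:**
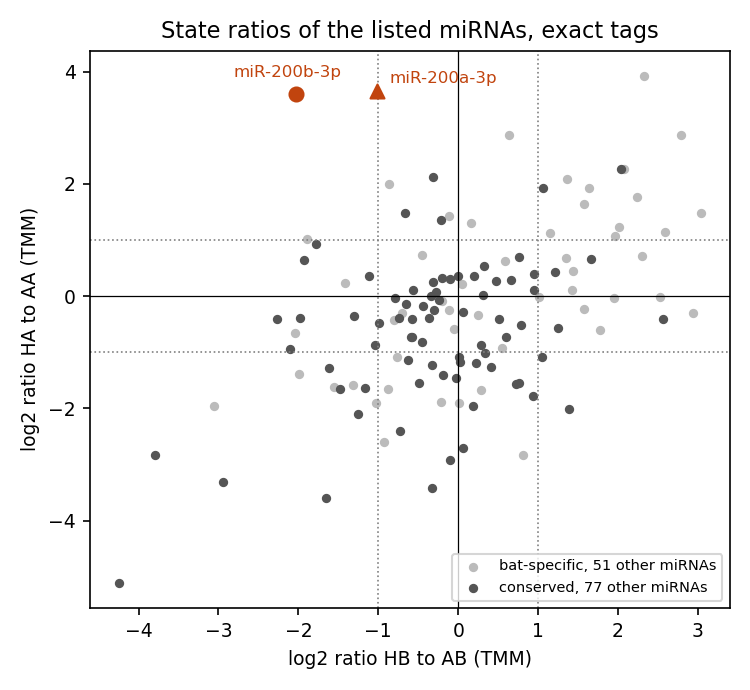
Log2 ratio of hibernating to active in brain (x axis) and in WAT (y axis) for 130 listed miRNAs counted by their listed form, with dotted lines at 1 and -1 and the members in red. A ratio against 0 reads, such as that of miR-200a-3p in WAT, is drawn at its bound, and the members lie at the upper left, at -1.02 and 3.66 and at -2.04 and 3.60.

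The WAT log2 ratio minus the brain log2 ratio was at least 4.68 for miR-200a-3p, with AA set to the floor of 3 reads. The exact counting interval of this gap begins lower, at 4.24. For miR-200b-3p the gap was 5.64 (4.73 to 6.55). With every form that shares the first 18 nt, miR-200a-3p had 614, 832, 131 and 4 reads in HB, AB, HA and AA, and miR-200b-3p had 59, 146, 540 and 39. Counting all forms therefore gave miR-200a-3p reads in AA, so that its WAT ratio became a value in place of a bound. Its log2 ratio was then -0.70 (-0.85 to -0.55) in brain and 5.27 (3.88 to 7.17) in WAT. That of miR-200b-3p was -1.57 (-2.03 to -1.12) in brain and 4.03 (3.56 to 4.54) in WAT. The directions held, but the brain difference of miR-200a-3p was then under 1 in size. It was also under 1, at -0.89, when TMM was computed over the conserved miRNAs alone.

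The makeup of the pair needs no scaling between libraries. Of the listed-form reads of both members, miR-200a-3p held 80.6% (72.6 to 87.2%) in HB, 67.3% (61.7 to 72.6%) in AB, 10.03% (6.87 to 14.0%) in HA and 0 of 28 reads in AA, which allows up to 12.3%. With all forms, the shares were 91.2%, 85.1%, 19.5% and 9.30%. miR-200a-3p was thus the larger part in both brain libraries and the smaller part in both WAT libraries, under either way of counting. In brain its share was higher in HB than in AB.

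The forms of miR-200a-3p were spread over many lengths. Its first 18 nt were found in 55 different tags, of which 14 with 5 or more reads held 95.8% of its reads. The 8 forms with the most reads are shown because their brain ratios are given below.
20 nt: tAACACTGtctggtaacgat
21 nt: tAACACTGtctggtaacgatg
22 nt: tAACACTGtctggtaacgatgt
Listed, 23 nt: tAACACTGtctggtaacgatgtt
Other 23 nt: tAACACTGtctggtaacgatgta
24 nt, along the listed form with A: tAACACTGtctggtaacgatgtta
24 nt, along the listed form with T: tAACACTGtctggtaacgatgttt
24 nt, leaving the listed form: tAACACTGtctggtaacgatgtaa

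The 20 nt form had 163, 212, 13 and 3 reads in HB, AB, HA and AA, and was the most abundant form in both brain libraries. The 22 nt form had 120, 163, 26 and 0 reads, and the 21 nt form 80, 108, 10 and 0. The listed form was thus not the main form in brain, and held 16.3% (13.5 to 19.4%) of the reads of all forms in HB and 24.5% (21.6 to 27.6%) in AB. In HA, where it was the most abundant form, it held 22.9% (16.02 to 31.1%). The 4 reads in AA were of 19 and 20 nt.

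Scaled by TMM over the first-18-nt counts, the brain log2 ratio of the listed 23 nt form was -1.29 (-1.65 to -0.94). It was -0.64 for the 20 nt form, -0.69 for the 21 nt form and -0.70 for the 22 nt form, and their intervals all lay below 0. The listed form had the lowest of these 4 ratios, and its interval overlapped those of the other 3. Since the pair was chosen by its listed-form counts, low in HB, nothing is read from this order. The other 23 nt form, which leaves the listed sequence at its last base and ends in A, had 29 reads in HB and 25 in AB, a log2 ratio of -0.05 (-0.87 to 0.78). The 24 nt form that leaves it at the same base and ends in a pair of A had 22 and 12 reads, a log2 ratio of 0.61 (-0.46 to 1.76). The 24 nt forms along the listed sequence were at -1.05 (-2.27 to 0.09), on 11 and 19 reads with A added, and at -0.98 (-2.05 to 0.04), on 14 and 23 reads with T added. For none of these 4 longer or diverging forms was a difference detectable at this depth, and their values lay on both sides of 0. Together, forms that leave the listed sequence and end in A only made up 12.5% (10.02 to 15.4%) of the reads in HB, 7.69% (5.97 to 9.72%) in AB and 17.6% (11.5 to 25.2%) in HA.

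Forms shorter than the listed one held 60.7% of the miR-200a-3p reads in HB, 59.4% in AB and 39.7% (31.3 to 48.6%) in HA. The mean length was 21.8 nt in HB and in AB and 22.5 nt in HA. The lengths were therefore close between the states in brain, and HA, the library with the highest share of long reads, had fewer short forms. Tags that lacked the first base held 6.78% of the reads with bases 2 to 17 in HB, 8.99% in AB and 5.76% in HA.

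**Figure D3:**
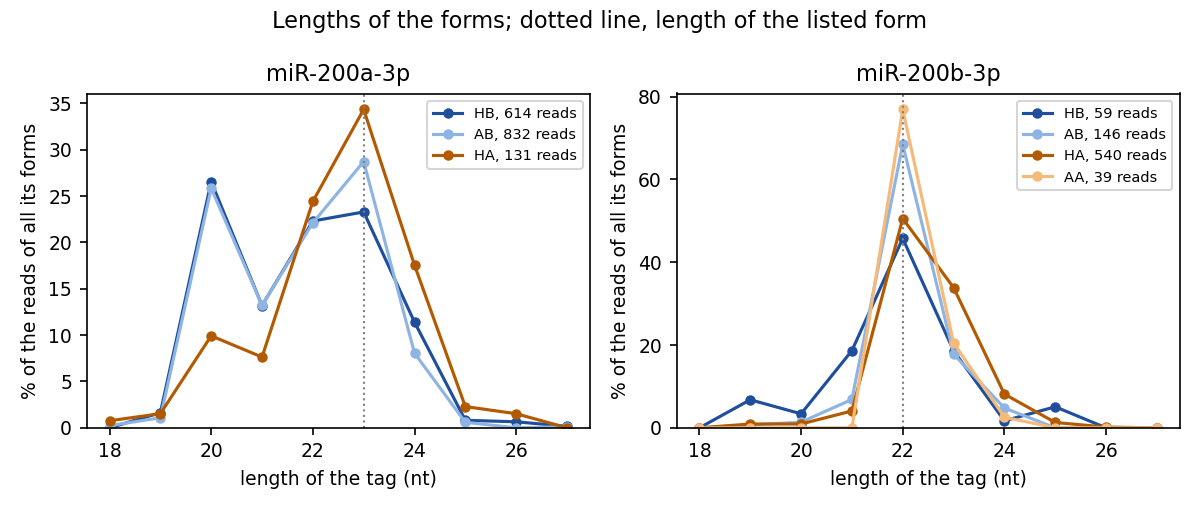
Share of the reads of all forms (y axis, %) by tag length (x axis, nt) for both members in each library, with a dotted line at the length of the listed form and with miR-200a-3p in AA left out, since it had 4 reads. In brain miR-200a-3p has a first peak at 20 nt, whereas the reads of miR-200b-3p peak at its listed 22 nt in every library.

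miR-200b-3p had fewer forms, with 25 tags, of which 8 with 5 or more reads held 95.8% of its reads. The 3 forms with the most reads differ only at the 3′ end.
21 nt: tAATACTGccgggtaatgatg
Listed, 22 nt: tAATACTGccgggtaatgatgg
23 nt: tAATACTGccgggtaatgatgga
The listed form was the most abundant in each library, with 40.7% (28.1 to 54.3%) of the reads of all forms in HB, 67.8% (59.6 to 75.3%) in AB, 49.8% (45.5 to 54.1%) in HA and 71.8% (55.1 to 85.0%) in AA. Its share was lower in the hibernating library in both tissues, with intervals that did not overlap. The 23 nt form had 10, 24, 151 and 8 reads in HB, AB, HA and AA, and its log2 ratio was -1.52 (-2.75 to -0.41) in brain and 4.48 (3.46 to 5.72) in WAT. The listed form, by which the pair was chosen, was at -2.31 in brain and 3.50 in WAT on the same scale. The 23 nt form, which was not used for that choice, thus also had opposite signs in the tissues. The 21 nt form, with 9 reads in HB and 7 in AB, had a brain log2 ratio of 0.10 (-1.49 to 1.76), which at this depth shows no detectable difference. In WAT its 21 reads in HA stood against 0 in AA, and the log2 ratio was at least 3.05 against the floor, with a counting interval that begins at 2.62.

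Longer forms along the listed sequence made up 43.1% (38.9 to 47.4%) of the miR-200b-3p reads in HA and 23.1% (11.1 to 39.3%) in AA. In HB and AB they made up 25.4% and 22.6%. Shorter forms held 25.4% in HB against 6.85% in AB. A lower share of the listed form thus went with more short forms in hibernating brain and with more long forms in hibernating WAT. Over the listed miRNAs with enough reads for a share, the listed form also had a lower share in the hibernating library for 74 of 116 (63.8%, median change -1.41 percentage points) in brain and for 75 of 103 (72.8%, median -4.88) in WAT. miR-200b-3p changed by -27.1 points in brain, where no other of the 116 fell further, and by -22.0 points in WAT, where 4 fell further. miR-200a-3p changed by -8.23 points in brain, where 31 fell further. The pair was chosen by its listed-form counts, low in HB, and these counts are the numerator of this share. The HB share of miR-200b-3p also rests on only 24 of 59 reads, so nothing is read from these places in brain.

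The unlisted relatives were not used to choose the pair. They are the other 18-nt starts that begin with T and a seed of either member and had 50 or more reads over the 4 libraries, a limit set after the values were seen. The last start inside it had 51 reads and the first outside it had 42, all in HA. The base-11 start had 208, 400, 171 and 0 reads in HB, AB, HA and AA. Over the 4 libraries it was thus about as abundant as miR-200b-3p, and in the tags with this start apart from base 11 that base was G in 784 reads, T in 779, and A or C in 0. The miR-429 start had 179, 219, 30 and 1 reads in that order. The miR-141 start was rare, with 13, 13, 18 and 7 reads.

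In brain, the log2 ratio was -1.20 (-1.45 to -0.96) for the base-11 start and -0.55 (-0.85 to -0.26) for the miR-429 start. For the miR-141 start it was -0.26 (-1.49 to 0.97), not detectable at this depth. In WAT, the base-11 start was at least 67.4-fold higher in HA, a log2 ratio of at least 6.07 against the floor of 3 reads, with a counting interval that begins at 5.76. The miR-429 start was at 5.15 (2.56 to 10.50), on 1 read in AA, and the miR-141 start at 1.60 (0.28 to 3.11). Apart from the miR-141 start in brain, each relative was lower in hibernating brain and higher in hibernating WAT, with counting intervals that did not reach 0.

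**Figure D4:**
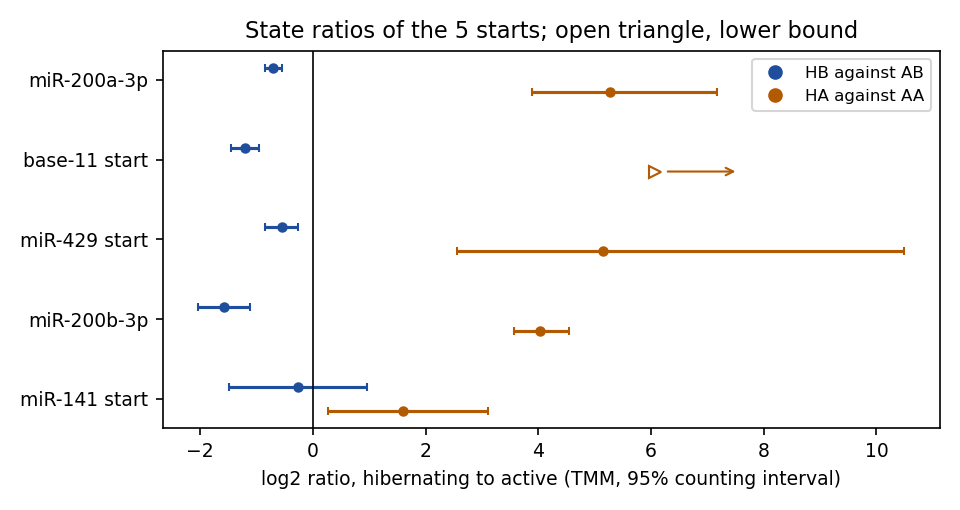
Log2 ratio of hibernating to active (x axis) for the 5 starts of the family (y axis), with blue for HB against AB, orange for HA against AA, lines for 95% counting intervals and an open triangle with an arrow for a lower bound. The brain interval of the miR-141 start crosses 0, and the other values lie below 0 in brain and all lie above 0 in WAT.

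The 5 starts together had 1073, 1610, 890 and 51 reads in HB, AB, HA and AA. In RPM these were 88.2, 161, 77.1 and 4.46, so active WAT stood far below the other libraries. The log2 ratio of the sum was -0.85 (-0.96 to -0.73) in brain and 4.37 (3.96 to 4.80) in WAT. The starts known from the miR-200b, miR-200a and miR-429 cluster had 1001, 1451, 332 and 5 reads in HB, AB, HA and AA, which was 93.3%, 90.1%, 37.3% and 9.80% of the family. The other starts, the listed miR-200b-3p and the miR-141 start, had 72, 159, 558 and 46 reads. The first group was at -0.80 (-0.91 to -0.68) in brain and 6.29 (5.06 to 7.93) in WAT, and the other at -1.40 (-1.83 to -0.99) and 3.84 (3.41 to 4.31). Brain and WAT thus differed in which group was larger, in either state. Both groups had the same direction of state difference in a given tissue, but each holds a member chosen for that direction. Of the reads of the other group, miR-200b-3p gave 59 of 72 in HB, 146 of 159 in AB, 540 of 558 in HA and 39 of 46 in AA. Nothing is therefore read from the shared direction of the groups or from that of the sum. The 5 starts held 89.7% and 93.8% of the reads with the miR-200a-3p seed in HB and AB, but 46.0% in HA and 18.0% in AA. For the miR-200b-3p seed these shares were 88.3%, 93.5%, 70.4% and 43.5%, so a seed alone marked the family less well in WAT.

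**Figure D5:**
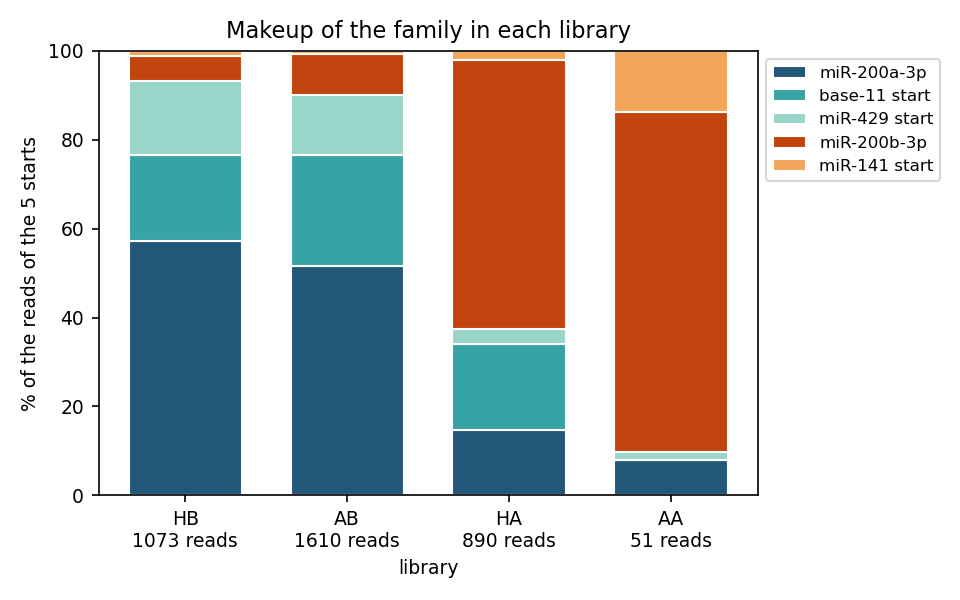
Share of the reads of the 5 starts (y axis, %) in each library (x axis, with the number of reads). miR-200a-3p, the base-11 start and the miR-429 start (blue to green) hold 93.3% in HB and 90.1% in AB, and miR-200b-3p and the miR-141 start (red and orange) hold most of HA and AA.

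The listed miRNAs whose pattern over the 4 libraries was most like a member's were taken by the Euclidean distance of centred log2 levels, over 129 miRNAs with 100 or more reads. The nearest to miR-200a-3p were miR-92b-3p (distance 3.09), miR-7c-5p (3.44) and miR-135-3p (3.98), against a median distance of 6.93. miR-92b-3p had 3948, 4929, 127 and 37 reads in HB, AB, HA and AA. The nearest to miR-200b-3p were the bat-specific miRNAs cCCGGCGGggaaggtggct (2.10) and gCGTTGGTggtatagtggtgag (2.15) and then miR-222-3p (2.18), against a median of 4.16. miR-222-3p had 1357, 5218, 3277 and 2639 reads in that order. The brain log2 ratio was -0.31 for miR-92b-3p, 1.06 for miR-7c-5p and -0.58 for miR-135-3p. For the bat-specific miRNAs it was 0.63 and -0.86 in the order named, and for miR-222-3p -1.93. A near pattern over the 4 libraries thus did not always mean the same sign of state difference in brain. The members were not close to each other, at a distance of 6.36, which was place 44 for miR-200a-3p and place 103 for miR-200b-3p.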

How the data were processed

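Small RNA of 4 pools, each of 3 bats, was gel-purified and sequenced on a Solexa instrument. Per library, the authors deposited the distinct tags left after trimming and quality filtering, each with its raw read count, before any normalization or mapping. Tags were 18 to 30 nt long. Libraries were assigned to groups by the sample labels. The mature sequences were read from a supplementary list of the study, and no value was taken from it.

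A member was counted by the identical tag, by tags with its first 18 nt, or by tags that contain bases 2 to 17. Ratios used the TMM factors of edgeR 4.0.16 (R 4.3.3), computed from the 196 listed miRNAs in each tissue, and shares and ratios carry Clopper-Pearson intervals. A count of 0 was set to a floor of 3 reads, no ratio was given where both libraries had 3 reads or fewer, and 10 or more reads in the pair were needed for the counts of miRNAs. For the likeness, 0.5 read was added. Form shares were compared over miRNAs of at least 20 nt with 20 or more reads in both libraries. Other steps used Python 3.11.15, NumPy 2.4.6, SciPy 1.17.1 and Matplotlib 3.10.9.

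Named are both members, forms with 5 or more reads (the most abundant in full), relatives that share a seed, the 3 nearest miRNAs by likeness, and marker lists by their sums. The lists for gut and kidney, liver, pancreas, endocrine and choroid plexus cells were looked up by name. With miR-7 left out, none of their names was among those of the study. The planned miR-7 was left out of the endocrine list because a listed name was to count only with the seed of its reference entry. Names from miR-7a to miR-7g are among those of the study. Of these, miR-7c-5p (tGGAAGACtagtgatttt) had 20988, 10140, 983 and 325 reads in HB, AB, HA and AA. Endocrine markers were therefore not shown to be absent. Since no reference table was used, these lists were not sought by sequence, and the second arms were not analysed here. The bat-specific miRNA with the same opposite signs was named after its values were seen. The members and lists were chosen with earlier results of these data known.

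Tested on simulated data with 60 miRNAs changed 4-fold, 58 of 60 passed a log2 size of 1 over 138 miRNAs in brain and 59 of 60 over 136 in WAT. The simulated counts held counting error only, with no variation between bats or libraries. They therefore check the calculation and not the state differences. Alternatives were scaling by clean reads, by the summed reads of the listed miRNAs, by the median of ratios of DESeq2 1.42.0 and by TMM over the conserved miRNAs, both other count rules, a minimum of 100 reads and forms with 2 or more reads.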

Additional observations from a re-analysis of the deposited data

Results flagged for a closer look

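The state difference of each member had one sign in brain and the other in WAT, which is why both are given here. For miR-200a-3p, the log2 ratio was -1.02 in brain and at least 3.66 in WAT, a gap of at least 4.68. Both bounds set AA to the floor of 3 reads, and their exact counting intervals begin at 3.27 and 4.24. For miR-200b-3p, the log2 ratio was -2.04 in brain and 3.60 in WAT, a gap of 5.64. With 1 library per group the difference between the tissues was not tested, and the pair was chosen for it.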

How the results depend on the processing

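No result changed sign under the alternatives run, and 55 of 68 comparisons with an alternative stayed within counting error or, for counts, within 1.5 times. For miR-200a-3p, the intervals of the WAT ratio and of its gap to brain had no upper end. A higher value could therefore not fall outside them, such as the WAT ratio of 5.27 with first-18-nt counts against 3.66. The listed-form share of miR-200a-3p in AA was 0 of 4 reads in every setting and could not move. Forms with 2 or more reads held all 59 miR-200b-3p reads in HB and all 39 in AA, so these shares could not move under that setting. Other scalings shift every log2 ratio of a tissue alike, by -0.29 (clean reads) to 0.13 (TMM over the conserved miRNAs) in brain and by -0.35 to 0.78 with the same settings in WAT. With TMM over the conserved miRNAs, the WAT ratio of miR-200b-3p was 4.38, and 5 miRNAs were at -1 or below in brain and at 1 or above in WAT. There were also 5 with first-18-nt counts. miR-200a-3p was not among them in either case, at -0.89 and -0.70 in brain. Its brain ratio was -0.65 with tags that contain bases 2 to 17. With a minimum of 100 reads, 1 miRNA, miR-200b-3p, was at -1 or below in brain and 1 or above in WAT, and 32 in brain and 38 in WAT had a size of 1 or more. The share of miR-200a-3p in the reads of both members was 91.2% with first-18-nt counts and 91.6% with bases 2 to 17 in HB, 85.1% and 86.3% in AB, and 19.5% and 20.3% in HA. The cause of these changes was not tested, except that a higher minimum tests fewer miRNAs. The scaling of the unlisted starts by clean reads was added after the data were seen and kept every sign. No paired analysis was possible because each group is 1 library. The WAT ratios rest on 0 and 28 listed-form reads in AA, and the bound of miR-200a-3p there was 9.91-fold with scaling by clean reads.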
